A study of Danio rerio with 3 samples.

Results

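The circadian clock genes described here are 37 genes of the molecular clock and its output, chosen by name out of the 30579 gene symbols in the libraries. They comprise 4 period genes, 5 cryptochromes, the photolyase gene cry5, 3 activator genes, 5 REV-ERB genes, 4 ROR genes, 5 genes of the PAR bZIP family, 2 genes of the NFIL3 family, 3 other repressors, 3 casein kinases and 2 genes of melatonin synthesis. They were listed by name and role, with earlier results of these data known. From general knowledge of vertebrate clocks, 16 were placed in a morning-phase list, 8 in an evening-phase list and 13 in neither.

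In vertebrates, the activators CLOCK and BMAL bind E-boxes and switch on the period and cryptochrome genes, whose proteins then repress the same activators. Nuclear receptors form a further loop, in which REV-ERB proteins repress and ROR proteins activate the BMAL genes. PAR bZIP activators and their competitor NFIL3 act on D-boxes and carry the rhythm to output genes. In zebrafish most tissues hold clocks that light sets directly, and transcription of per2, cry1aa, cry5 and tefa responds to light. The retina has its own clock, which is known for the nightly synthesis of melatonin in photoreceptors.

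The question was how these genes differed between a retina with ongoing rod degeneration and a healthy one, cell type by cell type. Single-cell 3′ RNA sequencing with 10X chemistry was analysed in 3 libraries. P23H V3 and P23H V2 came from fish of the uth4Tg line, which carry mouse rhodopsin with the P23H mutation under the rod rhodopsin promoter, so that the transgene acts in rods, and WT V3 came from fish of the AB strain. Each library was 1 pool of retinas from 3 fish, which the labels give as 4 to 8 months old, kept in 14 h of light and 10 h of darkness, and collected 2 to 4 h after light onset. There was 1 WT library, so that no p-value is given, and a difference between pools of fish, in collection time within this window or in handling cannot be told apart from genotype. With the V2 library of WT fish not analysed here, chemistry and genotype cannot be told apart in P23H V2.

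After filtering, 15514 cells of P23H V3, 4605 cells of P23H V2 and 13554 cells of WT V3 remained, with a median of 1244.5 unique molecular identifiers (UMIs, counted transcripts) per cell in P23H V3 and 460.0 in P23H V2, against 1220.0 in WT V3. P23H V3 and WT V3 shared 62 cell barcodes, or 0.457% of the cells of WT V3. P23H V3 and WT V3 were clustered together after integration and P23H V2 by itself. Marker genes named 15 cell types in the V3 libraries and 12 in P23H V2, where no cluster was named NPCs, T lymphocytes or erythroid cells. Unnamed and left out were 726 cells of P23H V3, 49 of P23H V2 and 1573 of WT V3. Among them was a cluster of 648 P23H V3 and 370 WT V3 cells with the amacrine marker slc6a9 as a top gene. Another, of 62 P23H V3 and 1192 WT V3 cells, had rod markers among its top genes. RPCs and NPCs are the study's names for retinal and neurogenic progenitor cells. In P23H V2, 316 of the 739 cells named newly formed rods came from a cluster with 0 of that type's markers among its top 10 genes. Those top genes included kcnv2a, which was also a top gene of a rod cluster in WT V3. Values of newly formed rods in P23H V2 may thus cover other cells than in the V3 libraries. Summed rod markers in rods were at 193939 CPM in P23H V3 and 61466 CPM in P23H V2, against 325862 CPM in WT V3. Rods of P23H V2 may thus differ in make-up too, and the part of this in the rod ratios was not tested. The summed markers of each type were 3.40 to 850 times higher in that type than in other cells of P23H V3, 5.92 to 1098 times in P23H V2 and 2.99 to 1914 times in WT V3, lowest in NPCs in both V3 libraries. The microglial genes c1qa and c1qb and the T cell gene lck had 0 UMIs in their types in every library that had them. Of the microglia and macrophages, 29 of 154 cells in P23H V3 and 12 of 79 in WT V3 came from 1 cluster of uncertain identity. It had 0 of the type's markers among its top 10 genes, which included the keratin genes krt91 and krt97.

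For each cell type, UMIs were summed and given as CPM, relative to all UMIs of that type and library, with exact 95% Poisson intervals, which cover counting error only. A gene with at least 30 UMIs over the compared libraries in a type was called higher or lower where these intervals did not overlap and the ratio was at least 1.5. Of the 37 genes, 34 reached 30 UMIs in at least 1 cell type of the V3 comparison and 22 in at least 10. The exceptions were nfil3, which had 0 UMIs in every library, rorca and the REV-ERB gene nr1d4b. The 555 possible pairs of a clock gene and a cell type gave 351 that could be compared.

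Clock genes were called higher in P23H V3 than in WT V3 in 119 of the 351 pairs, or 33.9%, against 13.7% of the 97766 pairs of all genes. They were called lower in 38 pairs, or 10.8%, against 11.5% of all genes. Morning-phase and evening-phase genes differed in direction over all pairs, though not in every type. Morning-phase genes were called higher in 76 of 151 pairs and lower in 2, with a median log2 ratio of 0.72 over the pairs. Most of these higher calls came from tefa and per2 (13 types each), cry1aa (11), per1b (10), and nr1d2b and ciarta (7 each). The paper had reported each of these genes as higher in some P23H cell type of the same V3 libraries. For per1, per2 and tefa it also reported higher expression in P23H retinal sections by in situ hybridization. Of the other morning-phase genes, cry5 was called higher in 6 of 6 types and the rest in at most 3 each. Evening-phase genes were called higher in 6 of 55 pairs and lower in 23, with a median of -0.72. Most of these lower calls came from aanat2 (10 types), nfil3-5 (8) and aanat1 (4), and the higher ones from npas2 (4) and aanat1 (2). Genes in neither list were called higher in 37 of 145 pairs and lower in 13. Of the 37 clock genes, morning-phase tefa, and csnk1e and rorab of neither list, had reads on a further copy row in the count tables. The rows took different shares in the P23H and WT libraries. Without these 3 genes, clock genes were called higher in 104 and lower in 32 of 316 pairs, and morning-phase genes were called higher in 63 and lower in 2 of 136.

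P23H V2, the other pool of P23H fish, was set against the same WT library, so that these counts share their WT values with those above. Clock genes were called higher in 73 and lower in 28 of 243 pairs, against 16.0% higher and 10.8% lower among all genes. Morning-phase genes were called higher in 47 and lower in 2 of 108 pairs. Evening-phase genes were called higher in 0 and lower in 15 of 33 pairs. In P23H V2 a gene with 0 UMIs was set at the floor of 3 counts, which lifts ratios in its smallest types, oligodendrocytes and RPE.

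**Figure D1:**
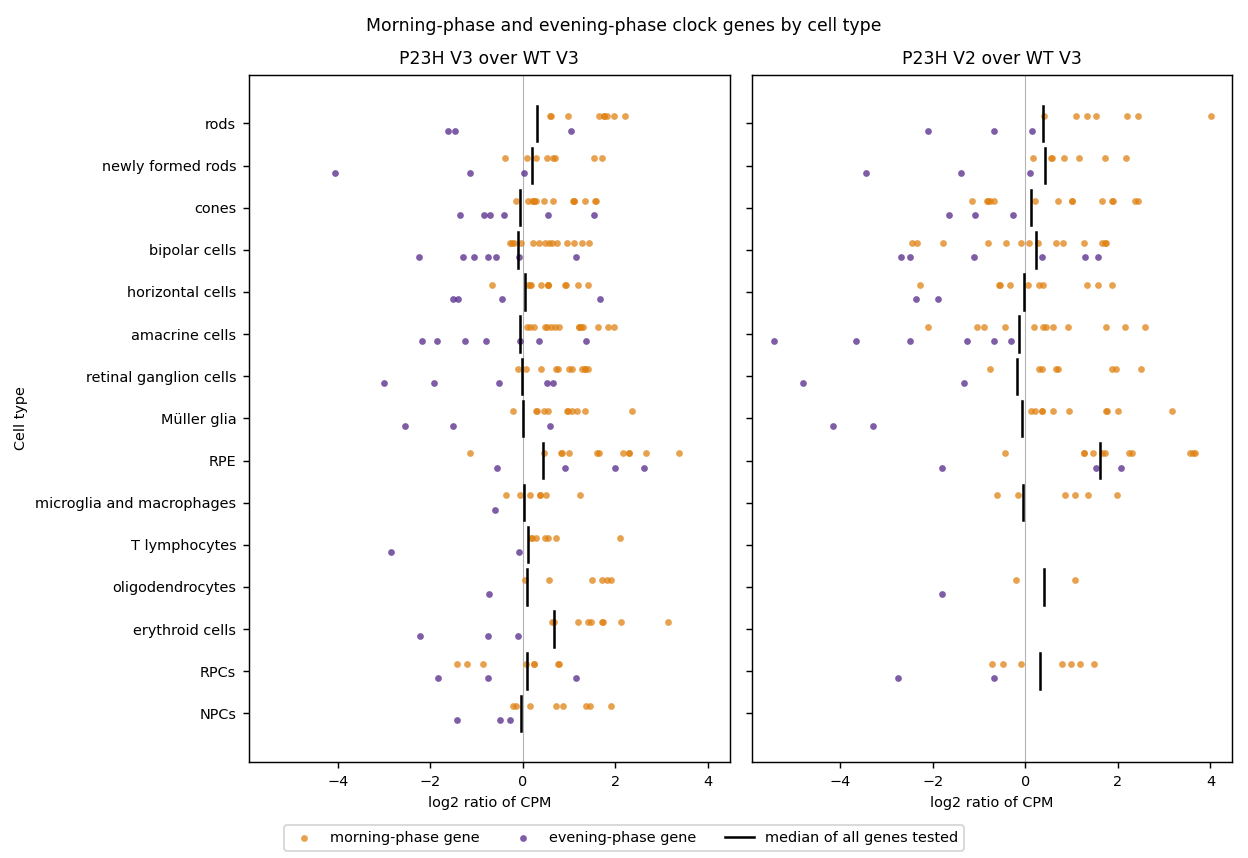
Log2 ratio of CPM (x axis) of each morning-phase gene (orange) and evening-phase gene (violet) that could be compared in each cell type (y axis), for P23H V3 and P23H V2 over WT V3, with the median of all genes as a black bar. In the V3 comparison most orange points lie to the right of the bar (76 of 151 called higher, 2 lower) and most violet points to its left (23 of 55 called lower, 6 higher).

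By cell type, clock genes were called higher in 18 of 27 against 22.3% of all genes in RPE, in 12 of 23 against 22.8% in rods and in 13 of 21 against 28.7% in erythroid cells. In these types the ratios of all genes were themselves shifted, with medians of 0.44 in RPE, 0.31 in rods and 0.67 in erythroid cells. TMM scaling, run as an alternative, moved log2 ratios by -0.95 in RPE, -0.27 in rods and -0.45 in erythroid cells. Before that scaling the clock genes compared in RPE had a median log2 ratio of 1.00. Among inner retinal neurons, clock genes were called higher in 15 of 34 against 11.1% in amacrine cells, in 7 of 33 against 11.9% in bipolar cells, in 6 of 27 against 10.6% in horizontal cells and in 7 of 27 against 10.6% in retinal ganglion cells. Müller glia had 9 of 25 against 10.1%, cones 13 of 32 against 15.2% and NPCs 6 of 21 against 6.6%. Oligodendrocytes had 5 of 13 against 11.5%, microglia and macrophages 2 of 13 against 11.0%, T lymphocytes 1 of 15 against 8.85% and newly formed rods 3 of 20 against 12.4%. RPCs had 2 of 20 called higher against 14.1% and 8 called lower against 12.9%, and of their 8 morning-phase genes 2 were called higher and 2 lower. Summed RPC markers in RPCs were at 4829 CPM in P23H V3 and 7787 CPM in P23H V2, against 2246 CPM in WT V3. Cone markers there were at 3115.5 CPM in P23H V3 and 2944 CPM in P23H V2, against 7173 CPM in WT V3. The part of this in the RPC ratios was not tested. In RPE the 4 evening-phase genes had a median log2 ratio of 1.45, with 1 called higher and 0 lower. That gene was aanat1, at 75.9 CPM in P23H V3 and 51.7 CPM in P23H V2, against 12.3 CPM in WT V3, where the P23H V2 interval overlapped that of WT V3. These levels came from 18 UMIs in P23H V3, 2 in P23H V2 and 78 in WT V3. Rods had 931 CPM of aanat1 in P23H V3 and 451 CPM in WT V3. Summed rod markers in RPE were at 10632 CPM in P23H V3 and 3592 CPM in P23H V2, against 11490 CPM in WT V3. The part of rod transcripts in the aanat1 ratio of RPE was not tested. In amacrine cells 6 clock genes were called lower, against 14.6% of all genes.

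**Figure D2:**
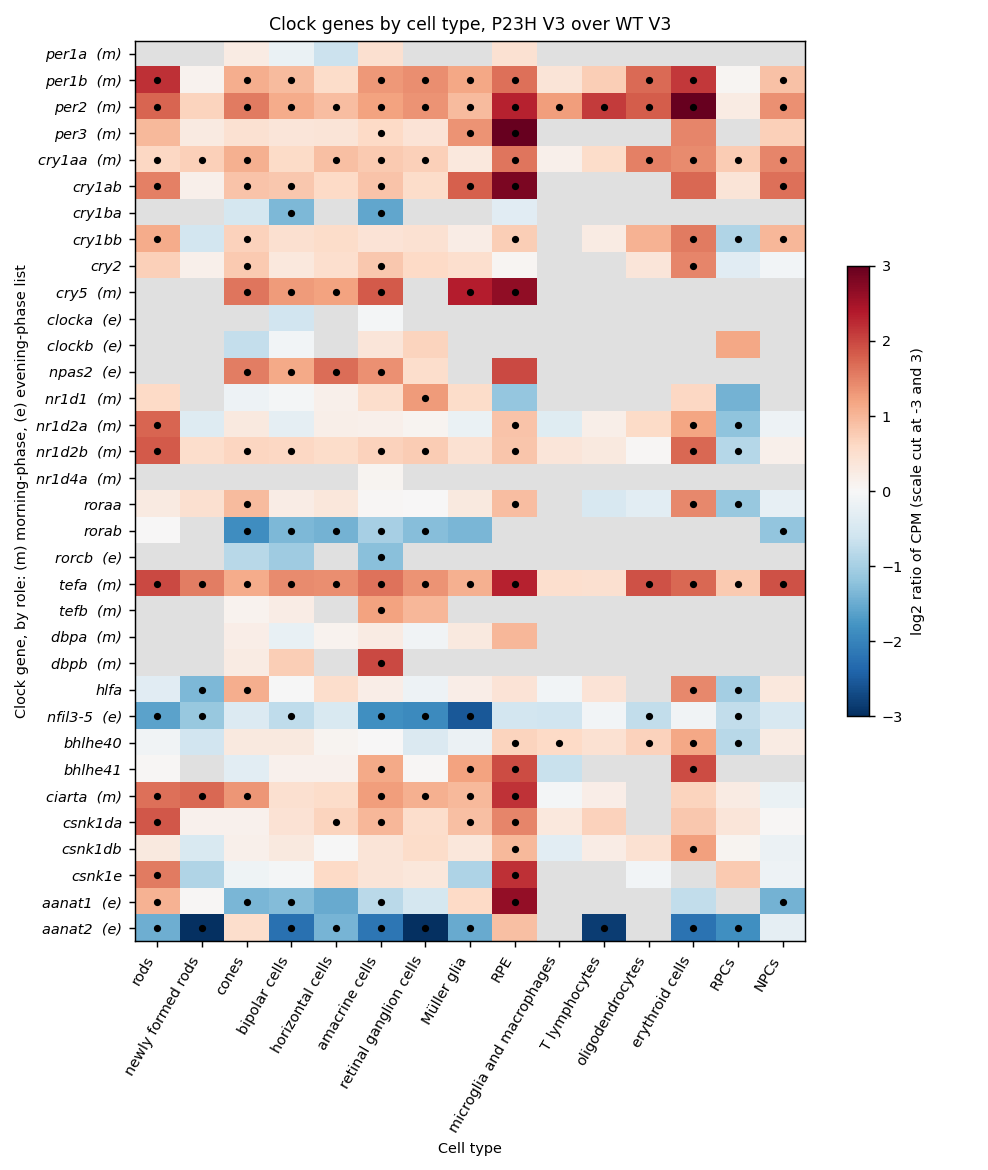
Log2 ratio of CPM, P23H V3 over WT V3 (colour), of the 34 clock genes with at least 30 UMIs in a cell type (rows, by role) in the 15 cell types (columns). Dots mark called differences and grey marks pairs below 30 UMIs; red rows such as tefa and per2 hold 13 dots each, and the aanat2 row holds 10 blue ones.

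The period genes encode the repressors that close the core loop, and per2 is also induced by light. In all, 26 of their 46 pairs were called higher and 0 lower. In cones, per2 was at 523 CPM in P23H V3 and 658 CPM in P23H V2, against 177 CPM in WT V3, a log2 ratio of 1.56 in V3 (95% interval 1.46 to 1.66). In bipolar cells it was at 536 CPM in P23H V3 and 394 CPM in P23H V2, against 249 CPM in WT V3. Both P23H libraries lay above WT V3 in these types, with intervals that did not overlap. In rods per2 was at 319 CPM in P23H V3 and 125 CPM in P23H V2, against 95 CPM in WT V3, so that the P23H V2 interval overlapped that of WT V3.

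In amacrine cells per2 was at 298 CPM in P23H V3 and 246 CPM in P23H V2, against 129 CPM in WT V3. In Müller glia it was at 239 CPM in P23H V3 and 186 CPM in P23H V2, against 124 CPM in WT V3. Retinal ganglion cells had 225 CPM in P23H V3 and 145 CPM in P23H V2, against 88.2 CPM in WT V3, and horizontal cells had 348 CPM in P23H V3 and 225 CPM in P23H V2, against 182 CPM in WT V3. The gene was called higher in 13 of 15 types in P23H V3 and in 5 of 11 in P23H V2. RPE had the highest level of P23H V3, at 814 CPM in P23H V3 and 543 CPM in P23H V2, against 165 CPM in WT V3. The exceptions in P23H V3 were newly formed rods, at 77.0 CPM in P23H V3 and 48.8 CPM in WT V3, and RPCs, at 49.3 CPM in P23H V3 and 41.6 CPM in WT V3.

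The period gene per1b, a target of the activators, was called higher in 10 of 15 types in P23H V3 and in 10 of 11 in P23H V2. In bipolar cells, its highest type in each library, it was at 337 CPM in P23H V3 and 574 CPM in P23H V2, against 174 CPM in WT V3. In amacrine cells it was at 245 and 436 CPM in P23H V3 and P23H V2, against 98.8 CPM in WT V3. In rods it was at 188 CPM in P23H V3 and 187 CPM in P23H V2, against 40.8 CPM in WT V3. The ratio was near 0 on the log2 scale in newly formed rods (0.10) and RPCs (0.06) of P23H V3, where P23H V2 had 179 and 98.3 CPM, against 79.8 and 49.9 CPM in WT V3.

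The other period genes were less abundant. The median log2 ratio of per3 was 0.61 over 11 types, with amacrine cells, Müller glia and RPE called higher, and in P23H V2 bipolar cells were called lower, at 13.8 CPM in P23H V2 and 69.9 CPM in WT V3. The gene per1a stayed at or below 20.6 CPM in P23H V3 and 23.8 CPM in WT V3 and was called in 0 of 5 types.

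**Figure D3:**
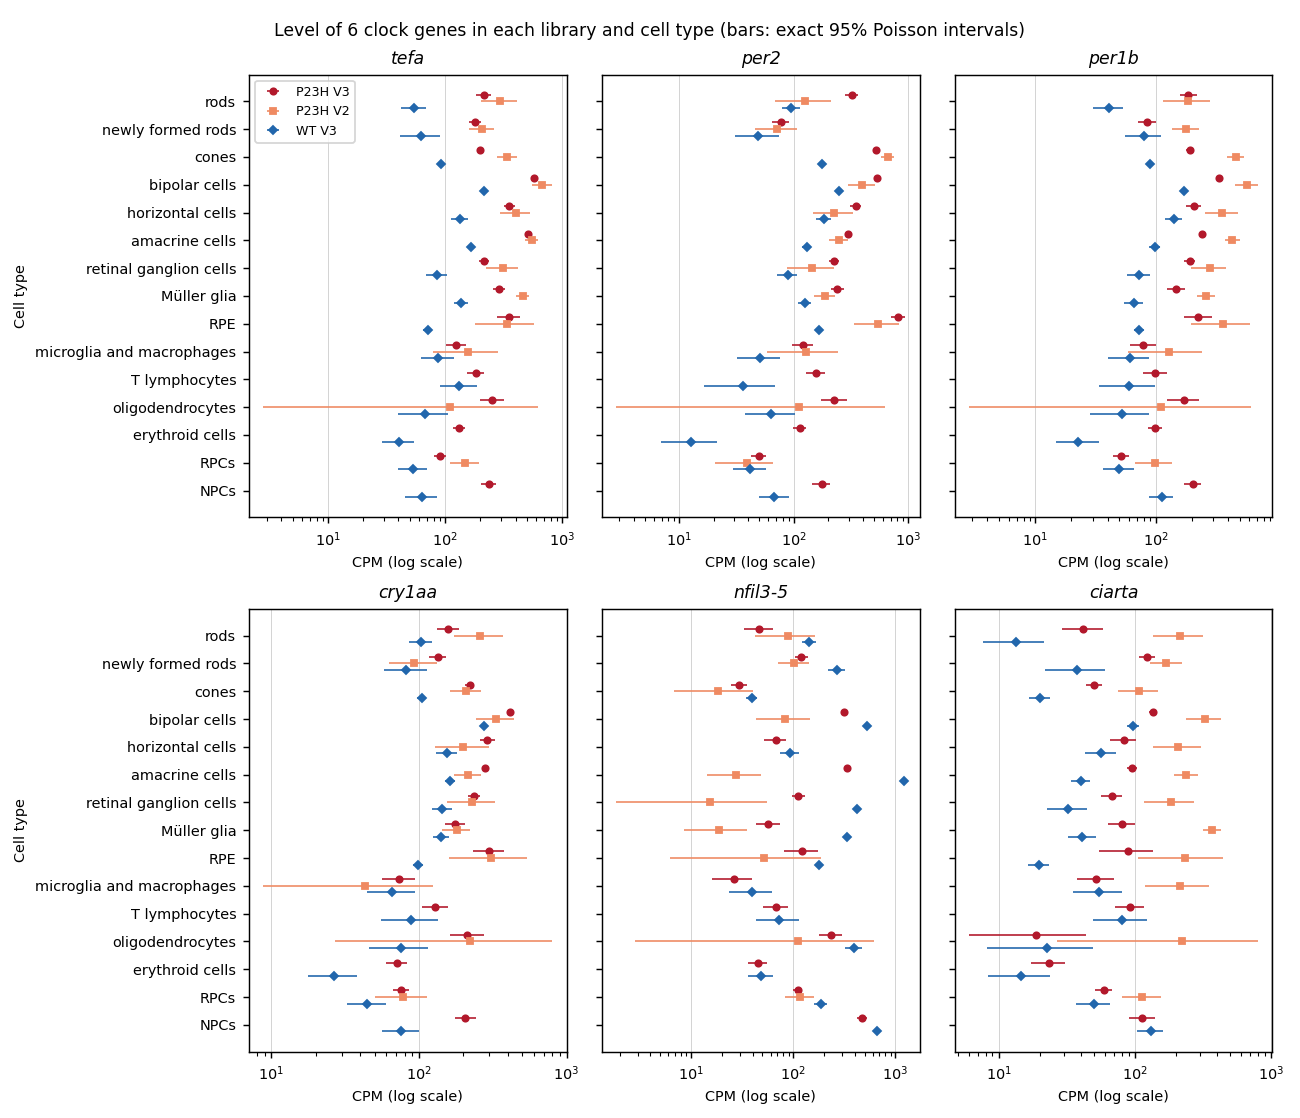
CPM (log scale) of tefa, per2, per1b, cry1aa, nfil3-5 and ciarta in each cell type, for P23H V3 (red circles), P23H V2 (orange squares) and WT V3 (blue diamonds), with exact 95% Poisson intervals; values of 0 are not drawn. For tefa (both rows summed) in bipolar cells P23H V3 stood at 576 and P23H V2 at 678, both to the right of WT V3 at 215, and for nfil3-5 in amacrine cells at 337 and 27.9, both to the left of WT V3 at 1214.

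Cryptochromes are the partners of the period proteins in repression, and cry5 encodes a photolyase that repairs DNA with light. The light-responsive cry1aa was called higher in 11 of 15 types in P23H V3 and in 3 of 11 in P23H V2. In cones it was at 220 CPM in P23H V3 and 208 CPM in P23H V2, against 104 CPM in WT V3. Its bipolar cell level was 412 and 332 CPM in P23H V3 and P23H V2, against 276 CPM in WT V3, a ratio below the limit of 1.5. NPCs had 206 CPM in P23H V3 and 75.3 CPM in WT V3, and RPCs had 75.4 CPM in P23H V3 and 77.5 CPM in P23H V2, against 44.7 CPM in WT V3. In amacrine cells it was at 281 CPM in P23H V3 and 214 CPM in P23H V2, against 163 CPM in WT V3.

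The gene cry5 could be compared in 6 types and was called higher in all 6 in P23H V3. In cones it was at 61.2 CPM in P23H V3 and 64.3 CPM in P23H V2, against 20.3 CPM in WT V3. In Müller glia it was at 53.1 and 35.2 CPM in P23H V3 and P23H V2, against 10.4 CPM in WT V3. These were the 2 types in which P23H V2 was called higher as well, out of 4.

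Among the other cryptochromes, cry1ab was called higher in 7 of 12 types in P23H V3 and in 5 of 7 in P23H V2. In Müller glia it was at 82.7 CPM in P23H V3 and 137 CPM in P23H V2, against 23.7 CPM in WT V3. The gene cry1bb was called higher in 5 of 14 types and lower in RPCs, at 20.0 CPM in P23H V3 and 37.4 CPM in WT V3. In P23H V2 it was called in 0 of 9 types, with a median log2 ratio of -0.33. In cones cry1bb was at 82.6 CPM in P23H V3 and 73.5 CPM in P23H V2, against 50.9 CPM in WT V3. The gene cry2 was called higher in 3 of 13 types. The sparse cry1ba was called lower in bipolar cells, at 4.80 CPM in P23H V3 and 12.3 CPM in WT V3, and in amacrine cells, at 3.79 CPM in P23H V3 and 11.2 CPM in WT V3.

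The activator genes were sparse, and their protein activity is not read from these counts. Evening-phase npas2, a relative of the clock genes that can take the place of CLOCK in mammals, was called higher in 4 of 6 types and so went against its list. Its bipolar cell level was 35.9 CPM in P23H V3 and 20.8 CPM in P23H V2, against 16.2 CPM in WT V3, and in amacrine cells at 28.8 CPM in P23H V3 and 4.64 CPM in P23H V2, against 11.2 CPM in WT V3. No pair of npas2 was called in P23H V2, where it had 8 UMIs in all named types. The genes clocka and clockb were called in 0 of 2 and 0 of 5 types and stayed at or below 18.7 CPM in every type of P23H V3 and WT V3.

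Of the REV-ERB repressors, which are morning-phase genes, nr1d2b was the most often called. It was higher in 7 of 15 types, among them rods, at 296 CPM in P23H V3 and 178 CPM in P23H V2, against 83.3 CPM in WT V3. In cones it was at 271 and 349 CPM in P23H V3 and P23H V2, against 173 CPM in WT V3. In bipolar cells P23H V3 was at 431 CPM and P23H V2 at 263 CPM, against 280 CPM in WT V3, so that the P23H pools lay on either side of WT V3. In RPCs nr1d2b was called lower, at 37.9 CPM in P23H V3 and 41.7 CPM in P23H V2, against 68.6 CPM in WT V3, with the P23H V2 interval overlapping that of WT V3.

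The related nr1d2a was called higher in rods, RPE and erythroid cells and lower in RPCs, at 27.1 CPM in P23H V3 and 44.7 CPM in P23H V2, against 62.3 CPM in WT V3. In rods it was at 104 CPM in P23H V3 and 89.0 CPM in P23H V2, against 30.8 CPM in WT V3. Its bipolar cell level was 144 and 131 CPM in P23H V3 and P23H V2, against 175 CPM in WT V3. The gene nr1d1 was called in 1 of 10 types, retinal ganglion cells, at 48.3 CPM in P23H V3 and 38.1 CPM in P23H V2, against 19.8 CPM in WT V3. The genes nr1d4a and nr1d4b stayed at or below 4.15 CPM in P23H V3 and 7.69 CPM in WT V3.

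The ROR genes encode the activators that compete with REV-ERB proteins, and rorab was called lower in 6 of 8 types, higher in 0. In bipolar cells it was at 39.3 CPM in P23H V3 and 69.2 CPM in P23H V2, against 99.9 CPM in WT V3, and only the P23H V3 interval lay clear of WT V3. In amacrine cells it was at 31.9 CPM in P23H V3 and 30.2 CPM in P23H V2, against 63.4 CPM in WT V3, and both were called lower. In cones it was at 4.14 and 6.12 CPM in P23H V3 and P23H V2, against 14.95 CPM in WT V3. The summed rorab row and copy row were also split unevenly. The copy row held 67.6% of rorab UMIs in P23H V3 and 9.2% in P23H V2, against 83.0% in WT V3, while the rorab row alone had 207 UMIs in P23H V3 and 58 in P23H V2, against 193 in WT V3. With rows not summed the median log2 ratio of rorab was -0.03, so that its lower calls rest on the copy row and cannot be told apart from the placing of reads. Its relative roraa had a median log2 ratio of 0.24 and was called higher in cones, at 363 CPM in P23H V3 and 254 CPM in P23H V2, against 187 CPM in WT V3, in RPE and in erythroid cells, and lower in RPCs. Evening-phase rorcb was called lower in amacrine cells and rorca had 0 UMIs in both P23H libraries and 2 in WT V3.

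The PAR bZIP gene tefa, an activator at D-boxes, was called higher in 13 of 15 types in P23H V3 and in 10 of 11 in P23H V2. In bipolar cells it was at 576 CPM in P23H V3 and 678 CPM in P23H V2, against 215 CPM in WT V3, a log2 ratio of 1.42 in V3 (1.32 to 1.53). In amacrine cells it was at 510 and 550 CPM in P23H V3 and P23H V2, against 165 CPM in WT V3. In rods it was at 214 CPM in P23H V3 and 294 CPM in P23H V2, against 54.2 CPM in WT V3. In each of these types both P23H pools stood apart from WT V3. These levels sum the tefa row and its copy row, since the count tables hold both. Over all barcodes the tefa row held 79.3% of the summed UMIs in P23H V3 and 84.6% in P23H V2, against 3.3% in WT V3, and the copy row held the rest. Reads of the uth4Tg and AB fish thus fell on different rows, and a difference in how reads of either strain could be placed on them cannot be told apart from a difference in tefa level. Taken row by row, the tefa row had 8285 UMIs in P23H V3 and 126 in WT V3, and the copy row had 2164 in P23H V3 and 3681 in WT V3, so that the rows went in opposite directions.

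In RPE tefa was at 350 CPM in P23H V3 and 336 CPM in P23H V2, against 71.0 CPM in WT V3. In NPCs it was at 237 CPM in P23H V3 and 63.0 CPM in WT V3. In oligodendrocytes tefa was at 254 CPM in P23H V3 and 111 CPM in P23H V2, against 67.5 CPM in WT V3. Oligodendrocytes of P23H V2 held only 9002 UMIs in 22 cells, so that their level rests on very few tefa UMIs. Both P23H pools lay above WT V3 in the remaining neural types. Cones had 200 CPM of tefa in P23H V3 and 340 CPM in P23H V2, against 93.1 CPM in WT V3. Horizontal cells had 354 CPM in P23H V3 and 400 CPM in P23H V2, against 134 CPM in WT V3. Retinal ganglion cells had 217 CPM in P23H V3 and 312 CPM in P23H V2, against 85.5 CPM in WT V3, and the P23H intervals lay clear of WT V3 in all these types. Müller glia had 287 CPM in P23H V3 and 460 CPM in P23H V2, against 137 CPM in WT V3. Newly formed rods had 180 CPM in P23H V3 and 206 CPM in P23H V2, against 62.1 CPM in WT V3. RPCs had the lowest tefa level of P23H V3, at 91.1 CPM, with 149 CPM in P23H V2 and 53.0 CPM in WT V3. The types in which tefa was not called in P23H V3 were microglia and macrophages, at 124 CPM in P23H V3 and 87.3 CPM in WT V3, and T lymphocytes, at 183 CPM in P23H V3 and 132 CPM in WT V3.

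Within bipolar, amacrine and cone cells the single clusters gave ratios in the same direction. The V3 log2 ratio of tefa was 1.06 to 1.48 over 3 bipolar clusters, 1.09 to 2.20 over 5 amacrine clusters and 0.91 to 1.89 over 3 cone clusters, each called higher. The same clusters gave 0.84 to 1.15, 0.77 to 1.51 and 1.01 to 1.71 for per2, all called higher. In Müller glia 1 of 2 clusters was called higher for each gene, and the other gave 0.79 for tefa and 0.29 for per2, which came from 18 UMIs in P23H V3 and 17 in WT V3.

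The other PAR bZIP genes did not share this pattern. In amacrine cells tefb was called higher, at 21.7 CPM in P23H V3 and 6.96 CPM in P23H V2, against 9.39 CPM in WT V3, and dbpb was called higher, at 16.4 CPM in P23H V3 and 0 UMIs in P23H V2, against 4.17 CPM in WT V3. The gene dbpa was called in 0 of 7 types in P23H V3. The gene hlfa differed between the P23H pools. In cones it was at 305 CPM in P23H V3 and 91.8 CPM in P23H V2, against 144 CPM in WT V3, and was called higher in P23H V3 and lower in P23H V2. It was called in 4 of 14 types in P23H V3, 2 in each direction, and lower in 8 of 10 types in P23H V2.

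NFIL3 competes with PAR bZIP activators for D-boxes. Of the 2 listed genes nfil3-5 had all the UMIs, and it was called lower in 8 of 15 types in P23H V3 and in 7 of 11 in P23H V2, and higher in 0. Its highest type in WT V3 was amacrine cells, at 337 CPM in P23H V3 and 27.9 CPM in P23H V2, against 1214 CPM in WT V3, a log2 ratio of -1.85 in V3 (-1.92 to -1.77). All 5 amacrine clusters were called lower in V3, with log2 ratios of -1.98 to -1.55. In Müller glia it was at 57.2 CPM in P23H V3 and 18.6 CPM in P23H V2, against 335 CPM in WT V3.

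In retinal ganglion cells nfil3-5 was at 113 and 15.2 CPM in P23H V3 and P23H V2, against 424 CPM in WT V3. Its bipolar cell level was 316 CPM in P23H V3 and 83.0 CPM in P23H V2, against 534 CPM in WT V3, and there 2 of 3 clusters were called lower. In RPCs it was at 111 CPM in P23H V3 and 116 CPM in P23H V2, against 186 CPM in WT V3. In each of these types the intervals of both P23H pools lay below that of WT V3. The P23H pools also differed from each other. Over all barcodes nfil3-5 was at 180 CPM in P23H V3 and 50.0 CPM in P23H V2, against 351 CPM in WT V3. Chemistry and genotype cannot be told apart in the P23H V2 level. NPCs held the highest level in P23H V3, at 471 CPM against 661 CPM in WT V3, a ratio below the limit of 1.5. Other rows named for NFIL3 also held reads. Over all barcodes nfil3-6, looked up after its values were seen and not among the 37 genes, was at 807 CPM in P23H V3 and 984 CPM in P23H V2, against 506 CPM in WT V3. The lower level of nfil3-5 was thus not shared by every row of the family. It was shared by nfil3-2, at 30.9 CPM in P23H V3 and 12.4 CPM in P23H V2, against 62.1 CPM in WT V3. The sparse nfil3-3 was at 5.98 CPM in P23H V3 and 1.24 CPM in P23H V2, against 7.69 CPM in WT V3. In cones, at 29.5 CPM in P23H V3 and 18.4 CPM in P23H V2, against 39.1 CPM in WT V3, nfil3-5 was not called.

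In amacrine cells the summed rows of the activator tefa stood at 510 CPM in P23H V3 and 165 CPM in WT V3 while nfil3-5 stood at 337 CPM in P23H V3 and 1214 CPM in WT V3. In cones tefa had a log2 ratio of 1.11 and nfil3-5 of -0.41, and only tefa was called.

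Among the other repressors, morning-phase ciarta, a repressor of the CLOCK and BMAL activators, was called higher in 7 of 14 types in P23H V3 and in 11 of 11 in P23H V2. In Müller glia it was at 80.7 CPM in P23H V3 and 369 CPM in P23H V2, against 41.1 CPM in WT V3. In amacrine cells it was at 95.5 and 239 CPM in P23H V3 and P23H V2, against 39.9 CPM in WT V3. In newly formed rods it was at 124 CPM in P23H V3 and 170 CPM in P23H V2, against 37.7 CPM in WT V3. P23H V2 lay above P23H V3 in each of these types.

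The gene bhlhe40, whose protein binds E-boxes and represses, was not called where it was most abundant. In bipolar cells it was at 3144 CPM in P23H V3 and 2670 CPM in P23H V2, against 2571 CPM in WT V3, and in amacrine cells at 2814 CPM in P23H V3 and 2449 CPM in P23H V2, against 2799 CPM in WT V3. It was called higher in RPE, microglia and macrophages, oligodendrocytes and erythroid cells, and lower in RPCs, at 136 CPM in P23H V3 and 209 CPM in P23H V2, against 243 CPM in WT V3. Its relative bhlhe41 was called higher in 4 of 10 types in P23H V3 and in 5 of 8 in P23H V2, and in amacrine cells it was at 63.1 CPM in P23H V3 and 128 CPM in P23H V2, against 28.7 CPM in WT V3.

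Casein kinases phosphorylate period proteins and set their turnover. The gene csnk1da was called higher in 5 of 14 types in P23H V3 and in 9 of 11 in P23H V2. In amacrine cells it was at 54.0 CPM in P23H V3 and 144 CPM in P23H V2, against 26.9 CPM in WT V3, and in rods at 175 CPM in P23H V3 and 89.0 CPM in P23H V2, against 48.3 CPM in WT V3. The genes csnk1db and csnk1e were called higher in 2 of 15 and 2 of 12 types in P23H V3 and lower in 0. For csnk1e the main row held 79.7% of UMIs in P23H V3 and 69.4% in P23H V2, against 24.9% in WT V3, so that its ratios carry the same limit as those of tefa.

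The last group makes melatonin: aanat1 and aanat2 encode the enzyme whose nightly activity sets the melatonin rhythm. In fish aanat1 is known as a retinal form and aanat2 as the main pineal form. The highest level of aanat1 was in rods in each library, followed by RPE in both P23H libraries and by NPCs in WT V3. That of aanat2 was in cones in P23H V3 and in rods in P23H V2 and WT V3. In these retinas aanat2 was the more abundant of the 2 over the named types. It had 2113 UMIs against 1222 of aanat1 in P23H V3, 103 against 96 in P23H V2 and 4016 against 1288 in WT V3. The levels moved apart in rods, where aanat1 was at 931 CPM in P23H V3 and 498 CPM in P23H V2, against 451 CPM in WT V3, and aanat2 was at 307 and 196 CPM in P23H V3 and P23H V2, against 846 CPM in WT V3. Only P23H V3 was called higher for aanat1, while both P23H pools were called lower for aanat2. In newly formed rods aanat2 was at 19.7 CPM in P23H V3 and 29.9 CPM in P23H V2, against 326 CPM in WT V3, a log2 ratio of -4.05 in V3 (-4.64 to -3.50). Summed rod markers in newly formed rods were at 12229 CPM in P23H V3 and 10536 CPM in P23H V2, against 22482 CPM in WT V3. The part of such a difference in cell make-up in this aanat2 ratio was not tested. In cones aanat2 was at 323 CPM in P23H V3 and 184 CPM in P23H V2, against 223 CPM in WT V3, and was not called.

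In cones aanat1 was called lower, at 11.3 CPM in P23H V3 and 9.18 CPM in P23H V2, against 29.0 CPM in WT V3. Its level in WT rods was 451 CPM, and transcripts of rods were lower in the same cones, with rho at 846 CPM in P23H V3 and 1335 CPM in P23H V2, against 4729 CPM in WT V3, and 5 of 5 rod transcripts called lower in P23H V3. A library-wide background profile was then subtracted, scaled by rho in each type except photoreceptors. Rods, newly formed rods and cones instead took the median share of the other types, 27.12% of UMIs in P23H V3 and 43.25% in WT V3. With this median share, aanat1 in cones stayed called lower, at 0.59 CPM in P23H V3 and 15.3 CPM in WT V3. Since the share was not taken from rho in cones, this call cannot tell what part rod transcripts had there. Outside photoreceptors aanat2 was called lower in 8 types of P23H V3, for example in bipolar cells, at 24.9 CPM in P23H V3 and 20.8 CPM in P23H V2, against 118 CPM in WT V3. Transcripts of rods moved with it, and their part in the aanat2 ratios outside photoreceptors was not tested beyond the subtraction that follows. The rhodopsin transcript rho was at 1875 CPM in bipolar cells of P23H V3 and 2310 CPM in those of P23H V2, against 13850 CPM in WT V3. Over all types, 5 rod transcripts were called lower in 67 of 74 pairs and higher in 1. After the same subtraction aanat2 had 0 UMIs left in horizontal cells, amacrine cells, retinal ganglion cells and Müller glia of both V3 libraries. This did not hold for every type outside photoreceptors. In bipolar cells, with shares of 37.74% in P23H V3 and 77.74% in WT V3, aanat2 UMIs were left in WT V3 but not in P23H V3. With the median share, aanat2 stayed called lower in rods, at 379 CPM in P23H V3 and 1214 CPM in WT V3. The same held in newly formed rods, at 1.54 CPM in P23H V3 and 405 CPM in WT V3. In cones aanat2 became called higher, with a log2 ratio of 0.67. NPCs were an exception to the relation with rho, since aanat2 was at 83.1 CPM there in P23H V3 and 99.9 CPM in WT V3, while rho was at 1365 CPM in P23H V3 and 9725 CPM in WT V3.

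**Figure D4:**
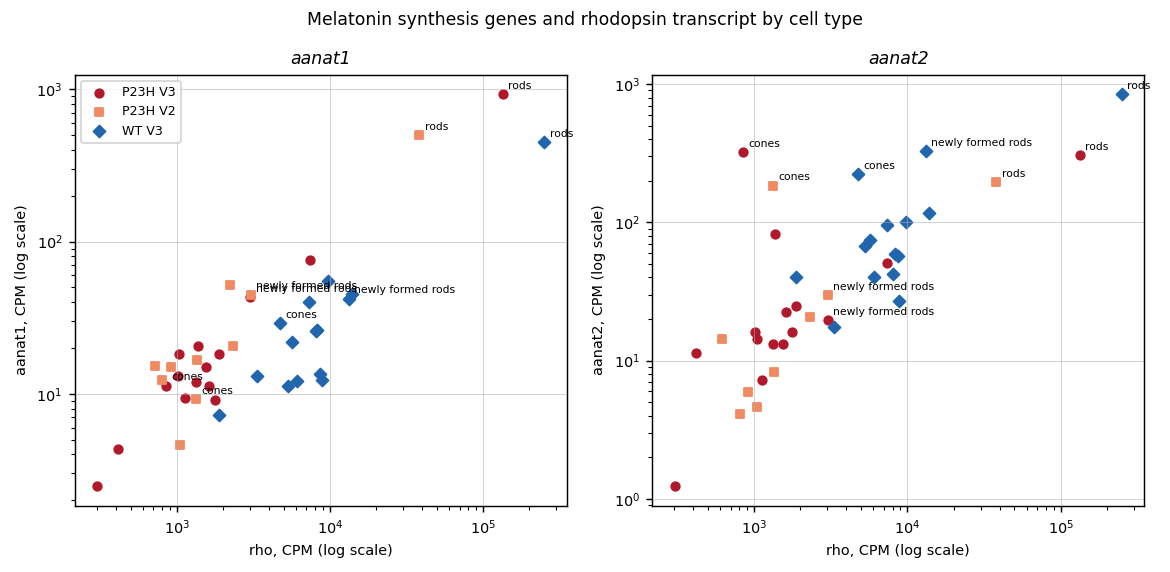
CPM of aanat1 (left) and aanat2 (right) against CPM of rho, both on log scales; each point is 1 cell type in P23H V3 (red circles), P23H V2 (orange squares) or WT V3 (blue diamonds), photoreceptors are named and values of 0 are not drawn. Most types other than photoreceptors hold more rho and more aanat2 in WT V3 than in the P23H libraries, and rods of P23H V3 lie above those of WT V3 for aanat1 (931 in P23H V3, 451 in WT V3) and below for aanat2 (307 in P23H V3, 846 in WT V3).

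Without aanat1 and aanat2, evening-phase genes were called lower in 9 of 31 pairs and higher in 4, against 11.5% lower and 13.7% higher among all genes. Of these, nfil3-5 made up 8 of the lower calls and npas2 all 4 of the higher ones. The melatonin genes gave 14 of the 23 lower calls.

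Other genes tied to the clock, from a list of 36 of which 26 were present, were called higher in 32 of 158 pairs, or 20.3%, and lower in 19, or 12.0%. Among all genes these shares were 13.7% and 11.5%. In P23H V2 the listed genes were called higher in 11 of 98 pairs, or 11.2%, against 16.0% of all genes. They were called lower in 20, or 20.4%, against 10.8%. The light-responsive cry-dash, a DNA photolyase, was called higher in 10 of 14 types, and usp2b, a ubiquitin protease, in 8 of 9, but in 0 of 5 in P23H V2. The BMAL genes arntl1a and arntl1b were called lower in 1 of 10 and 1 of 3 types and higher in 0. The gene fbxl3a, of the F-box family that marks cryptochromes for breakdown in mammals, was called lower in 6 of 12 types in P23H V3 and in 4 of 8 in P23H V2. The melatonin gene asmt was called lower in 4 of 7 types.

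Light-induced repair genes, a list that includes cry-dash, were called higher in 38 of 69 pairs and lower in 2 in P23H V3, and higher in 7 and lower in 0 of 40 in P23H V2. Immediate early genes, which respond to activity and to handling of cells, were called higher in 79 and lower in 23 of 175 pairs in P23H V3, and higher in 65 and lower in 15 of 130 in P23H V2. Heat shock genes were called higher in 51 and lower in 28 of 148 pairs in P23H V3, and higher in 25 and lower in 55 of 115 in P23H V2. Among all genes, 13.7% of pairs were called higher and 11.5% lower in P23H V3, and 16.0% and 10.8% in P23H V2. In P23H V3 the shares called higher were 55.1% for repair genes, 45.1% for immediate early genes and 34.5% for heat shock genes. The shares called lower were 2.9%, 13.1% and 18.9%. In P23H V3 these lists were called higher more often than lower, while in P23H V2 heat shock genes were called lower more often than higher, and light-induced repair genes were called higher in 17.5% of pairs, against 16.0% of all genes. Their part in the morning-phase result was not tested.

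In RPE the summed RPE markers were at 37546 CPM in P23H V3 and 30004 CPM in P23H V2, against 67361 CPM in WT V3, and cone markers were at 12508 CPM in P23H V3 and 8580 CPM in P23H V2, against 6254 CPM in WT V3. Erythroid markers in RPE were at 6149 CPM in P23H V3 and 2636 CPM in P23H V2, against 799 CPM in WT V3, and the RPE cells numbered 151 in P23H V3 and 49 in P23H V2, against 1084 in WT V3. The part of this in the RPE ratios was not tested. With the background subtracted, which was held at its limit of 90% of UMIs in RPE of P23H V3, morning-phase genes were called higher in 72 pairs and lower in 5, and evening-phase genes higher in 5 and lower in 16. All genes were not called after this subtraction, so no share of all genes stands beside these counts.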

How the data were processed

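Per the labels, whole retinas were dissociated with papain, and the authors made the deposited UMI counts per gene and barcode with Cell Ranger 3.1.2.0 on GRCz11. The submitters' notes also name FastQC 0.11.9, Seurat 3.1.1 and R 3.6.1. Rows of a symbol with a copy suffix were summed, which joined 47048 rows into 30579 symbols and joined reads of different rows for 3 clock genes, tefa, csnk1e and rorab. Cells with 200 to 4700 genes in P23H or 200 to 6000 in WT, and at most 10% mitochondrial UMIs, were kept. They were clustered in R 4.3.3 with Seurat 5.3.0 and Matrix 1.6.5 (20 principal components, resolution 0.8, the 2 clock genes among 2000 variable genes left out) and named from marker genes. A named cluster needed at least 3 markers. The doublet caller in scanpy 1.11.5 marked 0 cells of P23H V3, 3 of P23H V2 and 0 of WT V3, so it had not worked and no doublets were removed; an alternative removed the 8% with the highest scores.

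UMIs were summed per library and cell type with Python 3.11.15 (pandas 2.3.3 and numpy 2.4.6), intervals came from scipy 1.17.1 and plots from matplotlib 3.10.9. Poisson and conditional ratio intervals were exact at 95%, and 3 counts stood in for 0. No test between genotypes was possible with 1 WT library, and edgeR 4.0.16 gave only TMM factors for an alternative. Clock genes with at least 100 UMIs and called in at least 4 types in 1 direction, in both directions, or turned in P23H V2 were described most fully, the others by counts and their highest levels. The members and lists were chosen with earlier results of these data known. Scripts were tested on simulated data. Promoter and protein sequences were not used here.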

Additional observations from a re-analysis of the deposited data

Results flagged for a closer look

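Some clock genes were called in opposite directions in cell types of the same V3 comparison. The difference of log2 ratios between rods and RPCs was 2.03 for cry1bb (1.12 in rods, -0.90 in RPCs), 2.96 for nr1d2a (1.75 and -1.20) and 2.69 for nr1d2b (1.83 and -0.86). The RPCs compared also differed in summed RPC markers, at 4829 CPM in P23H V3 and 2246 CPM in WT V3. For bhlhe40, erythroid cells (1.15) differed from RPCs (-0.83) by 1.98. In erythroid cells all genes had a median log2 ratio of 0.67. Summed erythroid markers there were at 427718 CPM in P23H V3 and 661212.5 CPM in WT V3. The bhlhe40 ratio of 1.15 was not centred on the median of all genes, so that it carries this shift. The part of cell make-up in it was not tested. For aanat1, rods (1.05) differed from cones (-1.36) by 2.41. In those cones 5 of 5 rod transcripts were also called lower. In P23H V2 the log2 ratio of cry1bb was -0.70 in rods and -0.33 in RPCs, so that its opposite directions were seen in P23H V3 alone. None of these differences was tested, since each genotype and chemistry had 1 library.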

How the results depend on the processing

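The direction of hlfa in cones turned, being called higher with P23H V3 (log2 ratio 1.08) and lower with P23H V2 (-0.65). Calls of clock genes as higher ranged from 73 to 141, as lower from 24 to 46, of morning-phase genes as higher from 47 to 83 and of evening-phase genes as lower from 15 to 29. With at least 100 UMIs, 24 pairs were called lower and 3 evening-phase pairs higher. With P23H V2 in place of P23H V3, 73 pairs were called higher, 47 of them of morning-phase genes, while evening-phase genes were called higher in 0 and lower in 15. Without rods, newly formed rods, RPE and erythroid cells, chosen after seeing the data, 73 pairs were called higher. All genes were counted only in the main setting and with P23H V2, so the other counts have no share of all genes beside them. Morning-phase calls as lower numbered 1 at resolution 0.4, at resolution 1.2, with clock genes kept among the variable genes and at a ratio of at least 2, and 5 with the background subtracted. The median log2 ratio over cell types was below 0 with P23H V2 in place of P23H V3 for cry1bb (-0.33), hlfa (-1.68) and bhlhe40 (-0.02). With copy rows not summed the median of tefa was 5.91 and that of rorab -0.03, since the rows took different shares in the P23H and WT libraries. Leaving out the 3 genes with copy rows, a choice made after seeing the data, gave 104 pairs called higher and 32 lower. The causes were not tested. No paired analysis was possible because the labels give no replicate numbers and each group is 1 library. Depth limits P23H V2, with 2574931 UMIs in kept cells, against 31904044 in WT V3.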
